A study of Mus musculus with 4 samples.

Results

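Axon guidance genes encode ligands and receptors that steer growing nerve fibres and are also used by epithelia and blood vessels. The genes described here are the semaphorins of classes 3 to 7 and their plexin and neuropilin receptors, the ephrins and their Eph receptors, the Slits and Robos, and the netrins with the netrin receptors Dcc, Neo1 and Unc5a to Unc5d. Members were taken by symbol from probe sets that carry exactly 1 symbol in the platform annotation, and for a gene with several such probe sets the brightest, by its mean over the 4 arrays, was used. This gave 70 genes (73 probe sets) of 22180 genes with a single-symbol probe set. All 70 symbols were found in RefSeq's mouse gene table (assembly GRCm38.p6), which lists 72 symbols of these families. Ephb2 and Ntn5, the other 2, are not used here.

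The samples were mammary epithelial cells from inguinal glands of mice aged 4 weeks, on a congenic FVB/NJ background. There were 2 samples from mice carrying MMTV-Cre and 2 from wild-type littermates, each on its own Affymetrix array. MMTV-Cre places the Cre recombinase under the viral promoter of mouse mammary tumour virus, which is active in mammary and some other epithelia. The labels name no floxed allele and no agent given to the mice, and they do not say whether a sample came from 1 mouse or from pooled mice. They call the samples biological replicates without naming the animals, so p-values measure the spread between these samples.

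In this tissue, ducts begin to elongate around this age behind terminal end buds, whose outer cap cells surround inner body cells. Netrin-1 from the inner cells and its receptor neogenin on cap cells are known to hold these layers together in the mouse, and Slit2 acts through Robo1 in cell adhesion and in limiting branching. EphA2 is known to promote branching, and EphB4 and ephrin-B2 take part in the patterning of ductal and alveolar epithelium. Semaphorins signal through plexins, and those of class 3 mostly use a neuropilin as co-receptor.

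Levels are log2 values from RMA, a method that corrects background, equalises arrays and summarises probes. The probe sets of different genes bind with different strength, so levels of different genes are not ranked here. A mean of 2.84, the median over all 41345 probe sets, was used as the limit for dim genes. The 6 general epithelial markers had means of 6.37 to 10.36. Means ran from 4.47 to 6.86 for luminal hormone-sensing, from 3.96 to 7.96 for luminal progenitor and from 2.42 to 8.15 for basal markers. The keratin gene Krt8 had values of 10.30 and 10.36 with MMTV-Cre, compared with 10.40 and 10.37 for wild-type, and the adhesion gene Epcam had 8.67 and 8.52 with MMTV-Cre, compared with 8.61 and 8.64 for wild-type. Markers of other cells were also above the dim limit: 6 of 6 endothelial, 6 of 6 fibroblast and 5 of 5 pericyte genes had such means, as did 4 of 5 adipocyte, 3 of 5 macrophage and 2 of 5 skeletal muscle genes. The highest means of endothelial, fibroblast, pericyte and adipocyte markers were 7.93, 8.96, 8.21 and 9.65, so signal of other cells was not marginal. Wild-type replicate 1 stood apart by lymphocyte transcripts. The 7 measured T and B lymphocyte markers deviated from their means over the arrays by −0.64 and −0.59 log2 units on average in MMTV-Cre, and by 1.89 and −0.65 in wild-type replicates 1 and 2. In such bulk samples, fewer cells of a type and less RNA per cell cannot be told apart.

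Of the 70 genes, 43 (61.4%) had a mean at or above the dim limit, against 52.6% of all genes, while 13 (18.6%) had a mean of 5 or more, against 22.1% of all genes. The 27 dim members included Dcc, the classical netrin receptor of neurons, with array values of 1.72 to 1.90, and Robo2 and Robo3, with 1.79 to 1.93 and 1.56 to 1.67. They also included Slit1, Epha5, Epha6, Epha8, Epha10, Ephb1, Efna2, Efnb3, Ntn3, Ntng1, Ntng2, Unc5a, Unc5c, Unc5d, Plxna4, Plxnb3, Sema4f, Sema4g and Sema6c, and 5 of the 7 class 3 semaphorins, Sema3a, Sema3b, Sema3d, Sema3e and Sema3g. Sema3b measured 2.69 and 2.68 in the MMTV-Cre samples, against 2.85 and 2.32 in their wild-type littermates. Over these 27 genes no array value exceeded 3.03, that of Epha10 in wild-type replicate 1. Epha10 (mean 2.82) and Plxna4 (2.72) lay just below the limit, and Unc5b (2.85) and Epha7 (2.92) just above it.

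**Figure D1:**
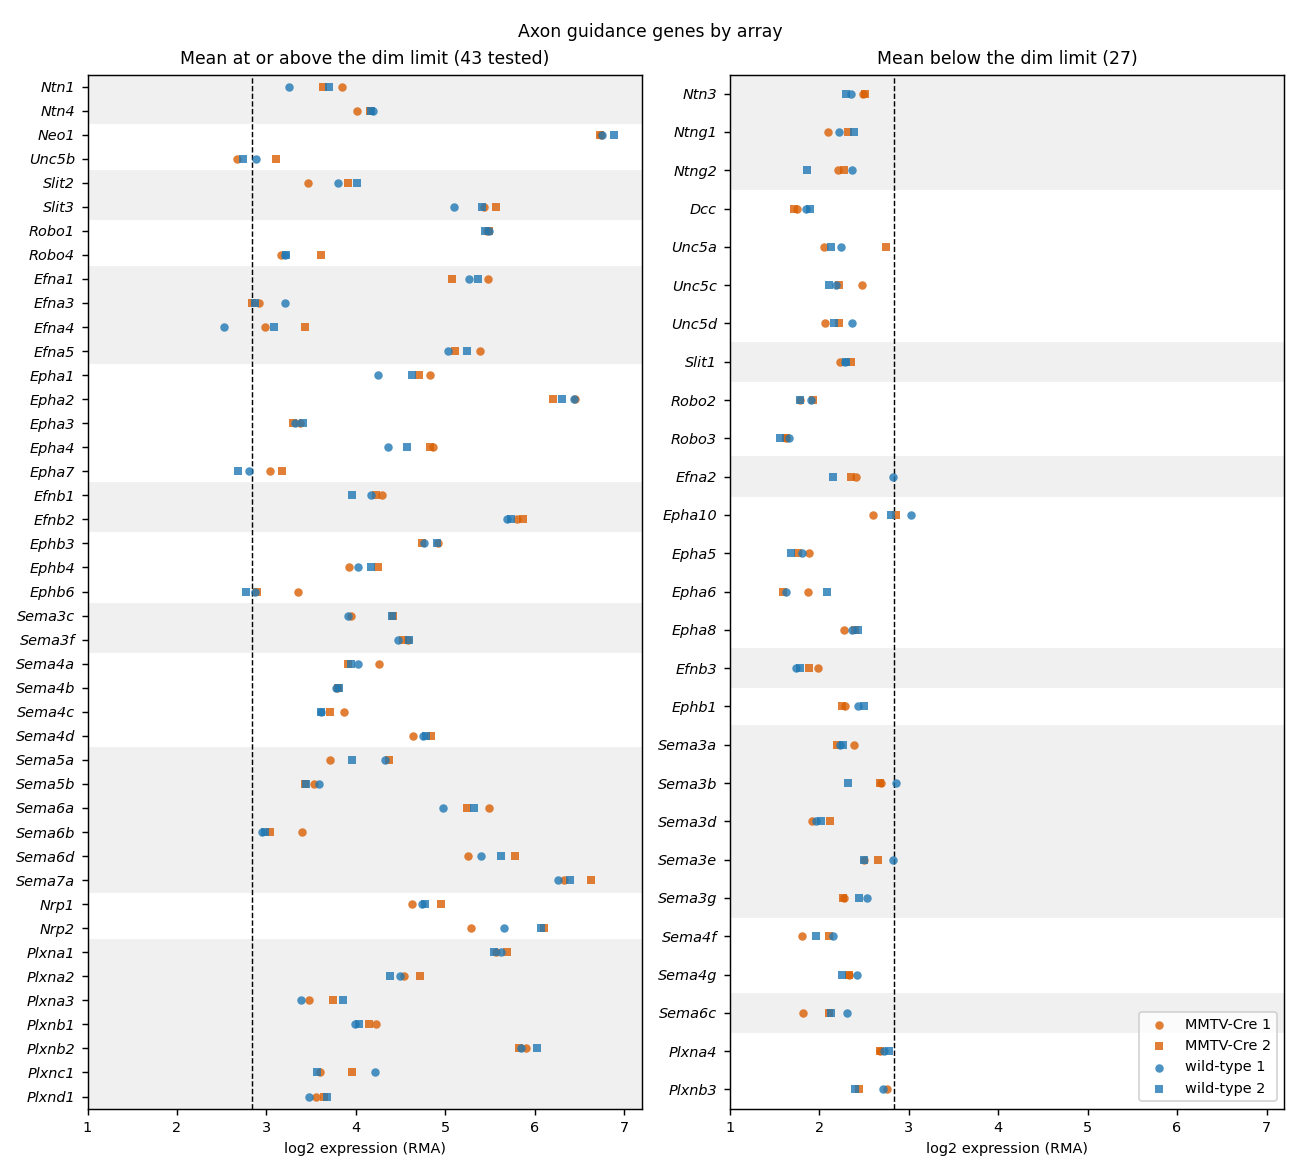
Log2 expression (RMA, x axis) of the 43 axon guidance genes tested (left) and the 27 below the dim limit (right), a row per gene, grouped by family with alternating shading. Orange points are the MMTV-Cre arrays and blue points the wild-type arrays (circles replicate 1, squares replicate 2), and the dashed line is the dim limit of 2.84. In most rows the points of the 2 groups intermingle, as for Robo1 and Sema4b, while Epha4 and Epha7 have both orange points on the right.

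Setting MMTV-Cre against wild-type asks how Cre-expressing glands differ from those of littermates. No axon guidance gene changed past the threshold. By limma, 0 of 43 members had an adjusted p under 0.05 (0.00% of the 11668 genes tested, smallest adjusted p 0.964), and 2, Epha4 and Epha7, had an unadjusted p under 0.05, against 4.32% of all genes tested. The 43 log2 differences, MMTV-Cre minus wild-type, ran from −0.22 to 0.40 with a median of 0.03, beside a median of −0.00 over all genes tested. Differences were above 0 in 27 members and below 0 in 16, where 49.0% of all genes tested were above 0. The 27 include Sema4b, whose group means were equal (3.80 each), so that its difference was 0 but for rounding.

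Both MMTV-Cre arrays lay above both wild-type arrays in 11 members, where this held for 16.7% of all genes tested, and below them in 2, where it held for 16.5%. After quantile normalization of the deposited values these counts were 12 and 0, beside 19.3% and 14.3% of all genes tested. The 11 were Epha1, Epha4, Epha7, Ephb6, Efnb1, Efnb2, Slit3, Sema4c, Sema6b, Plxna2 and Plxnb1, and the 2 were Ntn4 and Neo1. Epha7, Ephb6, Efna4 and Unc5b had wild-type means below the dim limit and so were tested only through their higher MMTV-Cre values. The place of Epha7 and Ephb6 among the 11, and the unadjusted p of Epha7, are therefore given as values only. The same holds for the largest difference, 0.40 for Efna4, and for the place of each of these genes among the differences above 0. The 95% intervals had a median half-width of 0.38 log2 units over members, and with 2 arrays a group the smallest two-sided p of an exact permutation test is 0.333. The count at an unadjusted p under 0.05 was 0 without wild-type replicate 1 (3.03% of all genes tested) and 4 without wild-type replicate 2 (5.42%).

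**Figure D2:**
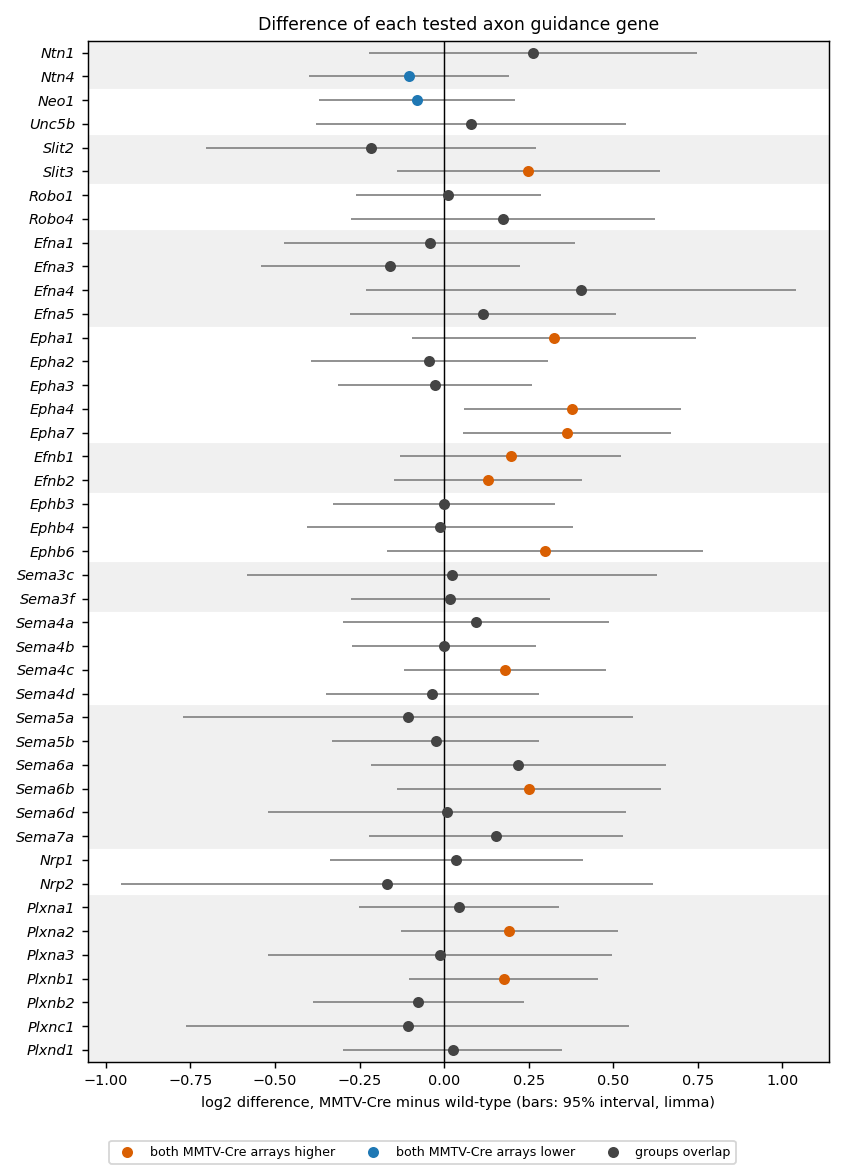
Log2 difference, MMTV-Cre minus wild-type (x axis), of each of the 43 tested genes (rows, grouped by family), with its 95% interval from limma as a bar. Orange marks the 11 genes with both MMTV-Cre arrays higher, blue the 2 with both lower and grey the 30 with overlapping groups. All intervals but those of Epha4 and Epha7 include 0.

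**Figure D3:**
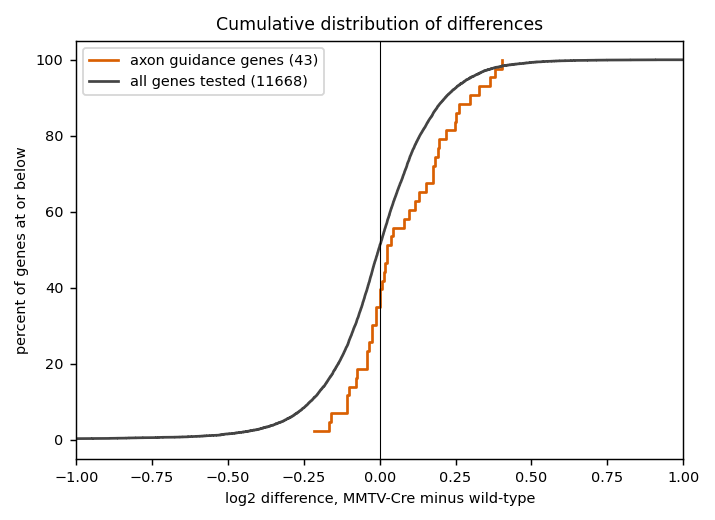
Percent of genes (y axis) with a log2 difference, MMTV-Cre minus wild-type, at or below the value on the x axis, for the 43 axon guidance genes (orange) and all 11668 genes tested (grey, drawn from −1 to 1). The orange line lies within −0.22 to 0.40 and to the right of the grey line over most of its course, with medians of 0.03 and −0.00.

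The EphA receptors are tyrosine kinases for ephrin-A ligands anchored to the membrane of neighbouring cells, and 5 of 9 were tested. Epha4, which also binds ephrin-B ligands, read 4.86 and 4.83 on the MMTV-Cre arrays and 4.36 and 4.57 on the wild-type arrays. The groups did not overlap, and the log2 difference was 0.38 (95% interval 0.06 to 0.70), a 1.30-fold difference with a limma adjusted p of 0.964. Epha7 had values of 3.04 and 3.17 with MMTV-Cre, compared with 2.80 and 2.68 for wild-type, a log2 difference of 0.36 (0.06 to 0.67, adjusted p = 0.964). Both its wild-type values lay below the dim limit, a range in which fold sizes are unreliable, and its mean over the 4 arrays passed that limit only through the MMTV-Cre arrays.

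Epha1 measured 4.83 and 4.70 in the MMTV-Cre samples, against 4.25 and 4.63 in their wild-type littermates, so that wild-type replicate 1 was low and replicate 2 close to the MMTV-Cre arrays. Its log2 difference was 0.33 (−0.09 to 0.75), and it was 0.14 without wild-type replicate 1. That of Epha4 was 0.27 without the same array and 0.49 without wild-type replicate 2, and that of Epha7 was 0.42 and 0.30. The other tested receptors of the class lay close in the groups. Epha2 read 6.45 and 6.21 on the MMTV-Cre arrays and 6.44 and 6.30 on the wild-type arrays, a log2 difference of −0.04 (−0.39 to 0.31), and Epha3 differed by −0.03 (−0.31 to 0.26).

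Among the ephrin-A ligands, 4 of 5 were tested and none had separate groups. Efna1, a ligand of EphA2, had values of 5.47 and 5.07 with MMTV-Cre, compared with 5.26 and 5.37 for wild-type, with the MMTV-Cre arrays on either side of the wild-type ones. Efna4 had the widest range of any tested member over the 4 arrays, 0.91 log2 units, with 2.98 and 3.43 in MMTV-Cre and 2.52 and 3.08 in wild-type. Its log2 difference of 0.40 had an interval of −0.23 to 1.04. With a wild-type mean of 2.80, below the dim limit, Efna4 was tested only through its MMTV-Cre values. Efna5 differed by 0.11 and Efna3 by −0.16, both with intervals that included 0. Efna1, Efna3 and Efna4 are consecutive protein-coding genes on chromosome 3 in the RefSeq table, and their differences had unlike signs.

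The transmembrane ephrin-B ligands Efnb1 and Efnb2 were each higher in both MMTV-Cre arrays without passing the test. Efnb2 measured 5.81 and 5.87 in the MMTV-Cre samples, against 5.68 and 5.73 in their wild-type littermates, a log2 difference of 0.13 (−0.15 to 0.41). Efnb1 read 4.30 and 4.22 on the MMTV-Cre arrays and 4.17 and 3.95 on the wild-type arrays, a log2 difference of 0.20 (−0.13 to 0.52) that was 0.30 without wild-type replicate 1 and 0.09 without wild-type replicate 2. Ephb4, which encodes an ephrin-B2 receptor of veins and mammary epithelium, had values of 3.92 and 4.25 with MMTV-Cre, compared with 4.02 and 4.16 for wild-type. That is a log2 difference of −0.01 (−0.41 to 0.38), with replicate 2 above replicate 1 in each group. Ephb3 differed by −0.00 (−0.33 to 0.33). Ephb6, a receptor that lacks kinase activity, measured 3.35 and 2.89 in the MMTV-Cre samples, against 2.87 and 2.77 in their wild-type littermates. Its log2 difference of 0.30 (−0.17 to 0.77) was 0.07 without MMTV-Cre replicate 1, the high array.

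Netrins are secreted, laminin-like ligands, and Ntn1 and Ntn4 were the 2 of 5 tested. Ntn1 read 3.85 and 3.63 on the MMTV-Cre arrays and 3.25 and 3.70 on the wild-type arrays. Wild-type replicate 1 was the low array, the groups overlapped, and the log2 difference of 0.26 (−0.22 to 0.75) was 0.04 without it. Ntn4, a netrin of basement membranes, had values of 4.01 and 4.15 with MMTV-Cre, compared with 4.19 and 4.17 for wild-type, a log2 difference of −0.10 (−0.40 to 0.19) that was −0.03 without MMTV-Cre replicate 1 and −0.18 without MMTV-Cre replicate 2. Among the receptors, Neo1, which encodes neogenin, measured 6.74 and 6.73 in the MMTV-Cre samples, against 6.75 and 6.88 in their wild-type littermates. Its groups were separate by less than 0.01 log2 units between MMTV-Cre replicate 1 and wild-type replicate 1, and its log2 difference was −0.08 (−0.37 to 0.21), with −0.15 without wild-type replicate 1 and −0.01 without wild-type replicate 2. Unc5b, a netrin receptor known in endothelium, read 2.67 and 3.11 on the MMTV-Cre arrays and 2.88 and 2.74 on the wild-type arrays, on either side of the dim limit.

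The Slits are large secreted ligands of the Robo receptors. Slit3 had values of 5.43 and 5.57 with MMTV-Cre, compared with 5.09 and 5.41 for wild-type, with a gap of 0.02 between the groups and a log2 difference of 0.25 (−0.14 to 0.64). That difference was 0.09 without wild-type replicate 1, the low array, and 0.41 without wild-type replicate 2. Slit2 measured 3.46 and 3.92 in the MMTV-Cre samples, against 3.80 and 4.01 in their wild-type littermates, and its log2 difference of −0.22 (−0.70 to 0.27) was 0.01 without MMTV-Cre replicate 1. Robo1, the receptor through which Slit2 acts in the gland, varied by 0.04 log2 units over the 4 arrays. It read 5.47 and 5.49 on the MMTV-Cre arrays and 5.48 and 5.44 on the wild-type arrays, a log2 difference of 0.01 (−0.26 to 0.29). Robo4, a receptor of endothelial cells, had values of 3.17 and 3.61 with MMTV-Cre, compared with 3.21 and 3.22 for wild-type, so that MMTV-Cre replicate 2 alone was high.

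Among the semaphorins, 12 of 20 were tested. Of class 3, the secreted class, Sema3c differed by 0.02 (−0.58 to 0.63) and Sema3f by 0.02 (−0.28 to 0.31). Class 4 semaphorins span the membrane, and Sema4d, a ligand of plexin-B1 that is abundant on T cells, measured 4.64 and 4.84 in the MMTV-Cre samples, against 4.75 and 4.79 in their wild-type littermates. Its log2 difference was −0.03 (−0.35 to 0.28). Sema4b varied by only 0.04 log2 units over the arrays, and Sema4c and Sema4a differed by 0.18 (−0.12 to 0.48) and 0.10 (−0.30 to 0.49). Sema6b read 3.39 and 3.04 on the MMTV-Cre arrays and 2.95 and 2.98 on the wild-type arrays, with MMTV-Cre replicate 1 high. Its log2 difference of 0.25 (−0.14 to 0.64) was 0.08 without that array. Sema7a, a semaphorin with a lipid anchor that binds plexin-C1 and integrins, had values of 6.33 and 6.63 with MMTV-Cre, compared with 6.26 and 6.39 for wild-type, with overlapping groups. Sema5a, Sema5b, Sema6a and Sema6d had log2 differences of −0.11, −0.02, 0.22 and 0.01, each with an interval that included 0.

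The plexins carry the semaphorin signal into the cell, and 7 of 9 were tested. Plxnb1, the Sema4d receptor, measured 4.22 and 4.15 in the MMTV-Cre samples, against 3.99 and 4.03 in their wild-type littermates, a log2 difference of 0.18 (−0.10 to 0.46). Its second, dimmer probe set went the other way, with 2.51 and 2.35 in MMTV-Cre and 2.75 and 2.53 in wild-type, a difference of −0.21. Plxna2 had separate groups and differed by 0.19 (−0.13 to 0.51). Plxnb2, a receptor for class 4 semaphorins, read 5.90 and 5.82 on the MMTV-Cre arrays and 5.85 and 6.02 on the wild-type arrays. Plxnd1, known for vessel patterning by Sema3e, had values of 3.55 and 3.64 with MMTV-Cre, compared with 3.47 and 3.67 for wild-type. Both overlapped between groups, with log2 differences of −0.08 (−0.39 to 0.24) and 0.03 (−0.30 to 0.35). Plxna1, Plxna3 and Plxnc1 differed by 0.04, −0.01 and −0.11, also with intervals that included 0, and the 2 probe sets of Plxna1 had differences of 0.04 and 0.07.

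Both neuropilins, co-receptors for class 3 semaphorins and for vascular endothelial growth factors, were above the dim limit. Nrp1 measured 4.63 and 4.95 in the MMTV-Cre samples, against 4.74 and 4.77 in their wild-type littermates, a log2 difference of 0.04 (−0.34 to 0.41). Nrp2 read 5.28 and 6.11 on the MMTV-Cre arrays and 5.66 and 6.06 on the wild-type arrays. The MMTV-Cre arrays thus lay at both ends of its range, and its log2 difference of −0.17 (−0.95 to 0.62) was −0.58 without MMTV-Cre replicate 2 and 0.25 without MMTV-Cre replicate 1.

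The gap between the arrays of a group exceeded the difference between the group means, in at least 1 group, in 37 of 43 members (86%, against 78.4% of all genes tested). The range over the 4 arrays was at least 0.5 log2 units in 12 of 43 members (27.9%, against 21.9% of all genes tested) and under 0.2 in 10. Over members the median range was 0.36, against 0.31 over all genes tested. Nrp2 was high in replicate 2 of each group, and so was Sema3c, whose product signals through neuropilins. Efna4, Sema6d and Slit2 were also higher in replicate 2 than in replicate 1 of each group. Sema3c had values of 3.95 and 4.41 with MMTV-Cre, compared with 3.91 and 4.40 for wild-type. The 6 endothelial markers were on average also higher in replicate 2 of each group, although Tek went the other way in MMTV-Cre, with mean deviations of −0.18 and 0.23 in MMTV-Cre and −0.27 and 0.22 in wild-type, and summed linear levels of 551 and 737 in MMTV-Cre and 520 and 695 in wild-type. Sema5a measured 3.71 and 4.37 in the MMTV-Cre samples, against 4.33 and 3.96 in their wild-type littermates. The 6 fibroblast markers together had mean deviations of −0.19 and 0.41 in MMTV-Cre and −0.13 and −0.09 in wild-type. Their summed linear levels were 986 and 1299 in MMTV-Cre and 963 and 1004 in wild-type. Of the 6, 3 were higher in both MMTV-Cre arrays, against 16.7% of all genes tested. Groups of Dcn, Lum and Pdgfra overlapped, and Pdgfra had a log2 difference of −0.12. Luminal progenitor, macrophage and pericyte markers were on average also higher in replicate 2 of each group, but by little in wild-type for 2 of these lists. The wild-type mean deviations were −0.03 and 0.01 for luminal progenitor, −0.07 and 0.18 for macrophage and −0.03 and 0.01 for pericyte markers. Tspan8, Cspg4 and Kcnj8 went the other way in MMTV-Cre, as did Cd14, Pdgfrb and Cspg4 in wild-type. The part of any of these cell types in the members' values was not tested.

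Plxnc1, the Sema7a receptor, read 3.60 and 3.96 on the MMTV-Cre arrays and 4.21 and 3.56 on the wild-type arrays, highest in wild-type replicate 1. The lymphocyte markers were high in the same array, with summed linear levels of 64.1 and 67.5 in MMTV-Cre and 434 and 68.1 in wild-type. Cd3g, Cd3d and Cd79a lay below the dim limit in each of the other 3 arrays. The part of lymphocytes in the Plxnc1 values was not tested. No member stood 1 log2 unit or more above the other 3 arrays in wild-type replicate 1, where 63 of all genes tested did. Ntn1, Epha1, Epha4, Sema6a and Efna4 were lowest in that array, and wild-type replicate 1 was the lowest array for 16 of 43 members (37.2%, against 28.8% of all genes tested). The 6 general epithelial markers had mean deviations of 0.07 and −0.02 in MMTV-Cre, against −0.05 and −0.01 in wild-type. Of the basal markers 5 of 6 were tested, with mean deviations of −0.02 and 0.09 in MMTV-Cre, against −0.03 and −0.04 in wild-type. Among them the contractile genes Acta2 and Cnn1 were higher in both MMTV-Cre arrays, which held for 16.7% of all genes tested. They differed by 0.40 and 0.31 log2 units, with unadjusted limma p of 0.0289 and 0.0431 and an adjusted p of 0.964 for each. Krt14, Trp63 and Myh11 had overlapping groups, with log2 differences of −0.33, −0.24 and 0.19. The part of basal cells in the members' values was not tested.

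**Figure D4:**
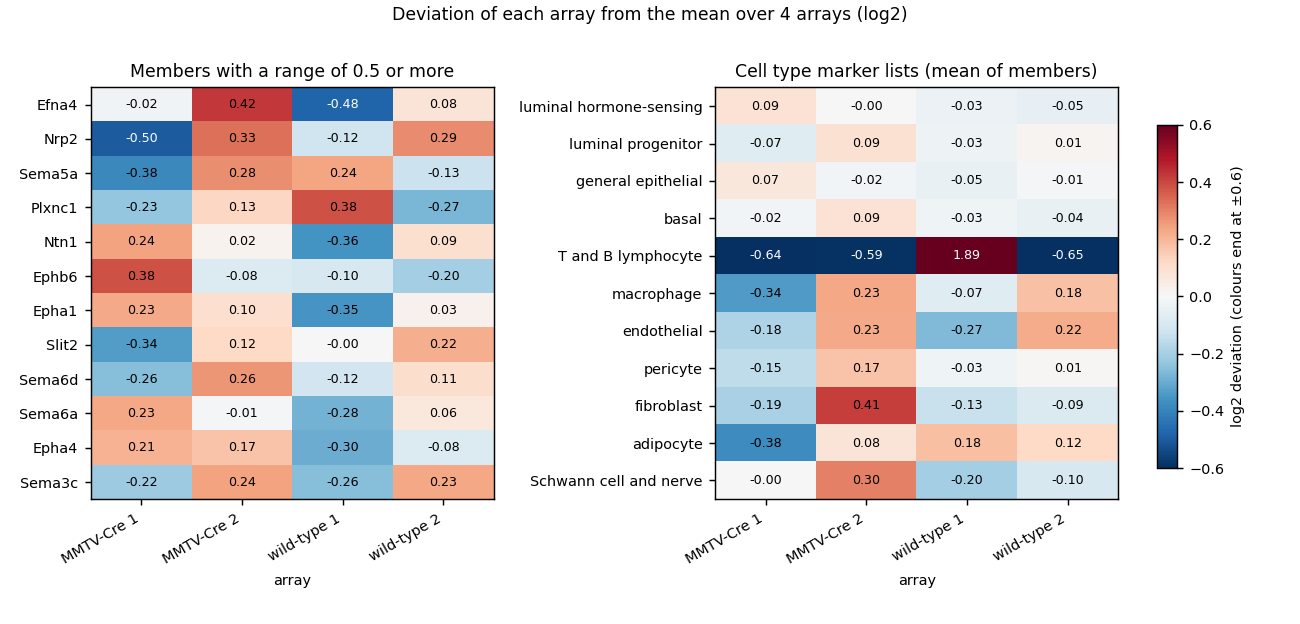
Deviation of each array from the mean over the 4 arrays (log2 units, colour and printed value) for the 12 axon guidance genes with a range of 0.5 or more (left) and for cell type marker lists (right, mean over tested markers). Columns are the 2 MMTV-Cre arrays and then the 2 wild-type arrays. Nrp2, Sema3c, Efna4, Sema6d and Slit2 have negative values in replicate 1 and positive values in replicate 2 of each group. So do the endothelial, luminal progenitor, macrophage and pericyte lists, though the wild-type values of the luminal progenitor and pericyte lists are small (−0.03 and 0.01 for each). The lymphocyte list stands at 1.89 in wild-type replicate 1.

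Since these families act in nerves, nerve and glial markers were read as well. The neuronal genes Tubb3, Nefl and Prph lay below the dim limit, while the myelin gene Mbp, which is not restricted to nerve, read 5.23 and 5.44 on the MMTV-Cre arrays and 4.88 and 5.13 on the wild-type arrays. The glial genes Sox10 and S100b had means of 2.88 and 3.26.

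Other genes of the pathway also held no change past the threshold. Of 17 co-receptor and other ligand genes 12 were tested, and of 54 genes for cytoplasmic effectors 44 were tested. None in either list had an adjusted or an unadjusted limma p under 0.05, and the median log2 differences were −0.03 and 0.02. Among the effectors 12 were higher in both MMTV-Cre arrays (16.7% of all genes tested) and 4 lower (16.5%). Among the co-receptors and other ligands 0 were higher and 3 lower. Mical1, an enzyme that oxidises actin below plexins, had values of 3.65 and 3.77 with MMTV-Cre, compared with 3.48 and 3.41 for wild-type, a log2 difference of 0.27 (−0.03 to 0.56). Abl1, a tyrosine kinase that acts below Robo receptors, differed by 0.25 (−0.06 to 0.57). Gpc1, a heparan sulphate proteoglycan that binds Slits, measured 4.35 and 4.24 in the MMTV-Cre samples, against 4.53 and 4.60 in their wild-type littermates. Its log2 difference was −0.27 (−0.56 to 0.02), and that of the effector gene Ngef was −0.23 (−0.52 to 0.06).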

How the data were processed

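Per the labels' protocols, minced glands without lymph node were digested with collagenase and centrifuged to remove stroma, and cDNA for the arrays was made from 50 ng of RNA. Per the submitters' processing notes, the authors used oligo and RMA, with versions not given in the sources used here. Each deposited value is a probe set's log2 expression, with the scale inferred from the values (array medians 2.83 to 2.86). RMA equalises arrays and would hide a shift of most transcripts.

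Of 41345 probe sets 23521 carried 1 symbol, 1814 several and 16010 none named here. Genes with a mean of at least 2.84 over the 4 arrays (11668) were fitted with limma 3.58.1 in R 4.3.3 (lmFit, eBayes), two-sided, with p-values adjusted by Benjamini-Hochberg over all of them at 0.05. The fit was tested on simulated data. The number of arrays limits the precision. Members and lists were chosen with earlier results of these data known. Array values are given for members with known roles in mammary or vascular tissue, for up to 6 members in each direction by smallest p among those whose groups do not overlap, and for others chosen after their values were seen. Alternatives covered the filter, probe sets, normalization, variance model, a replicate block and leaving out each array.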

Additional observations from a re-analysis of the deposited data

How the results depend on the processing

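No member passed the adjusted threshold in any alternative run. Changes of the filter or variance model, and the replicate block, leave a gene's difference as it was, so its sign was fixed there. The mean of probe sets could change the difference only of Plxnb1 among the named members, and it became −0.0167. Quantile normalization and median centring could change every named member, and the sign changed for Ephb4 (0.0145 and 0.0113). The count of 181 of 184 differences that kept their sign with all 4 arrays includes the fixed ones. Members lower in both MMTV-Cre arrays numbered 7 of 70 with no filter (16.3% of all genes), 1 of 43 after median centring (13.0%) and 0 of 43 after quantile normalization (14.3%), and those higher numbered 7 of 27 under the stricter filter, at a mean of at least 4 (16.8%). Members with an unadjusted p under 0.05 numbered 1 of 27 with the stricter filter (4.18% of all genes) and 1 of 43 with a variance trend (4.13%). The replicate number as a block left 2 of 43 such members, Epha4 and Efna4 (3.81%), and 0 past the adjusted threshold. Efna4 was tested only through its MMTV-Cre values. The samples share only a number (correlation of same-numbered deviations −0.04 over genes).

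Without each array in turn, of 43 members those higher numbered 14 to 24 (27.8% to 35.9% of all genes tested), those lower 5 to 11 (29.3% to 37.5%), and those with an unadjusted p under 0.05 from 0 to 4 (3.03% to 5.49%); a lone array is assumed to vary like the other group and separates more easily. The differences then ranged from −0.24 to 0.16 for Efna1, −0.16 to 0.0758 for Epha2, −0.18 to 0.15 for Ephb4, −0.12 to 0.20 for Nrp1, −0.58 to 0.25 for Nrp2, −0.16 to 0.0117 for Plxnb2, −0.0760 to 0.13 for Plxnd1, −0.0067 to 0.0326 for Robo1, −0.0491 to 0.40 for Robo4, −0.14 to 0.0663 for Sema4d, −0.44 to 0.0123 for Slit2 and −0.14 to 0.30 for Unc5b. The cause was not tested. Signal near the dim limit makes the size of a difference uncertain for Epha7, Efna3, Efna4, Ephb6, Sema6b and Unc5b.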
